A study of Mus musculus with 16 samples.

Results

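Expression of 5 mouse genes of the Reg family, Reg1, Reg3a, Reg3b, Reg3g and Reg4, was followed in 2 stretches of the small intestine, duodenum and ileum, in mice with Neurog3 deleted from the gut epithelium and in their controls. The genes were chosen by symbol, and all 5 were found among the 55359 genes of the count table. Mutants carried floxed Neurog3 alleles and the Villin-CreERT2 transgene (Neurog3f/f; Villin-CreERT2), a tamoxifen-activated recombinase under a promoter of the intestinal epithelium, and controls were Neurog3f/f without it. All were adult males on a C57BL/6N background, kept on standard chow and killed 18 weeks after tamoxifen. Each genotype had 4 animals, and every animal gave a duodenal and an ileal library, so the 16 libraries formed 4 groups of 4: mutant duodenum, control duodenum, mutant ileum and control ileum. Libraries are named here by the animal, NFVCT for mutants and NF for controls. Because controls had no recombinase, its own effect and that of Neurog3 loss cannot be told apart. The labels do not state tamoxifen for controls separately, nor which stretch or layers of the gut were taken. In whole tissue, fewer cells of a type and less RNA per cell cannot be told apart either.

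Reg proteins are small secreted lectins of the gut and pancreas. In the gut, Reg3b and Reg3g are made by Paneth cells and enterocytes and bind bacterial surfaces. Reg3g kills Gram-positive bacteria and keeps them away from the mouse ileal surface, and Reg3b acts mainly on Gram-negative ones. Their transcription in the gut is known to depend on microbes, on IL-22 acting through STAT3, and on MyD88. Reg1 is made in the exocrine pancreas and the upper small intestine, Reg3a in both organs, and Reg4 in secretory cells of the gut, enteroendocrine cells among them. Neurog3 is the transcription factor from which enteroendocrine cells, the hormone cells of the gut, take their origin.

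Total counts per library ran from 8213889 to 35076714. Neurog3 had 0 counts in mutant duodenum and mutant ileum, against 98 counts in control duodenum and 71 in control ileum, each summed over 4 libraries. Levels are given as CPM, that is, counts brought to one library size by TMM scaling over the 16 libraries. Pancreatic acinar genes (a list of 19, such as Prss2 and Cpa1) took 2.01 to 20.8% of counts in mutant duodenum and 7.36 to 16.5% in control duodenum, against 0.0504 to 0.558% in mutant ileum and 0.130 to 0.927% in control ileum, so duodenal libraries held pancreatic RNA to unequal extents.

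Reg1 (ENSMUSG00000059654), Reg3a (ENSMUSG00000079516), Reg3b (ENSMUSG00000071356) and Reg3g (ENSMUSG00000030017) lie on chromosome 6, and Reg4 (ENSMUSG00000027876) lies on chromosome 3. The promoter windows of Reg3b and Reg3g are shown because these genes moved together across libraries. That of Reg4 is shown because it was the member whose genotype effect differed between tissues by the edgeR test. Each runs from 250 bases before to 50 after the annotated start, 5′ to 3′ on the gene's strand, from RefSeq on GRCm38.p6: Reg3b at chr6:78370635-78370934 (+), Reg3g at chr6:78468825-78469124 (-) and Reg4 at chr3:98221906-98222205 (+). Capitals mark matches, on either strand, to TTCNNNGAA, the core letters of a STAT site, and to TATAAA, the letters that TBP binds at many starts of transcription.
Reg3b: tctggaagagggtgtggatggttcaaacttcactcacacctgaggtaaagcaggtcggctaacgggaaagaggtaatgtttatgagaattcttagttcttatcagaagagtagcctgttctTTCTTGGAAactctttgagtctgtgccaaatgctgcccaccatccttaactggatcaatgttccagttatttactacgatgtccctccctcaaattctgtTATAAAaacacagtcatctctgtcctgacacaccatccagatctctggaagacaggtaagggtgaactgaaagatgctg
Reg3g: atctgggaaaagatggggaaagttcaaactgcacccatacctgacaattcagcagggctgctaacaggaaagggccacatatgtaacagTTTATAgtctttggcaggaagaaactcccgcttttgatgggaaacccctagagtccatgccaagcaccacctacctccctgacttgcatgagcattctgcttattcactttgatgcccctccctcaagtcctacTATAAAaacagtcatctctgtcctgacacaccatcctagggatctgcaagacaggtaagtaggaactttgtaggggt
Reg4: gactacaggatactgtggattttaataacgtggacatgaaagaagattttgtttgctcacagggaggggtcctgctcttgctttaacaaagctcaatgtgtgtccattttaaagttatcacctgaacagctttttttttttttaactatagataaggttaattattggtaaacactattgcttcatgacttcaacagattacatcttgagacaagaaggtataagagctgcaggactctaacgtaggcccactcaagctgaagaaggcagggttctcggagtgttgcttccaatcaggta
The Reg3b window held TTCTTGGAA 129 bases before the start and TATAAA 29 bases before it. In Reg3g, TATAAA began 27 bases before the start and its reverse complement, TTTATA, 161 bases before it, with no TTCNNNGAA. Neither motif was in the Reg4 or Reg3a window, and the Reg1 window held TATAAA 30 bases before the start and TTTATA 36 bases after it. Of 32851 RefSeq promoter windows of this length, 8.3% held TTCNNNGAA and 13.6% held TATAAA on either strand. Aligned end to end, the Reg3b and Reg3g windows were identical in 68.09% of alignment columns, against 43.6 to 55.28% for every other pair of the 7 mouse Reg windows (Reg2 and Reg3d included). Their longest identical run was 29 bases, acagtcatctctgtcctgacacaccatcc, which began 20 bases before the start in both. No stretch of 50 bases of the Reg3a, Reg3b, Reg3g or Reg4 transcripts occurred in another gene's transcript, whereas 3.65% of those of Reg1 did, in genes outside the family.

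Per kilobase of transcript, the order of the 5 genes differed between the tissues. In the ileum Reg3b and Reg3g led by a wide margin: Reg3b averaged 25407 ± 7372 CPM per kb in mutants and 13898 ± 6891 in controls, and Reg3g 13737 ± 2437 in mutants and 7710 ± 3939 in controls (SD, n = 4 each). The next ileal gene was Reg4 in mutants, at 373 ± 98.7 CPM per kb, and Reg1 in controls, at 288 ± 156 CPM per kb, and in controls Reg1 and Reg4 (165 ± 50.2) lay within each other's spread. In the duodenum Reg3b also led in mutants, at 15371 ± 3423 CPM per kb, with Reg1 (5780 ± 2124) and Reg3g (5138 ± 1742) next and within each other's spread. In control duodenum Reg1 led at 6803 ± 1288 CPM per kb, above Reg3b at 2728 ± 2470 and Reg3g at 1478 ± 1281, which overlapped. Reg4 and Reg3a came last in the duodenum: Reg3a averaged 268 ± 227 CPM per kb in mutants and 69.1 ± 17.1 in controls, and Reg4 42.4 ± 7.36 in mutants and 111 ± 39.3 in controls, with overlap of the 2 genes in controls. Last in the ileum was Reg3a, at 57.8 ± 22.5 CPM per kb in mutants and 99.9 ± 28.6 in controls, below the 171 ± 86.0 of Reg1 in mutants. Together the 5 genes took 1.55 to 2.48% of counts in mutant duodenum and 0.669 to 1.1% in control duodenum, against 2.43 to 4.18% in mutant ileum and 1.39 to 3.33% in control ileum.

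**Figure D1:**
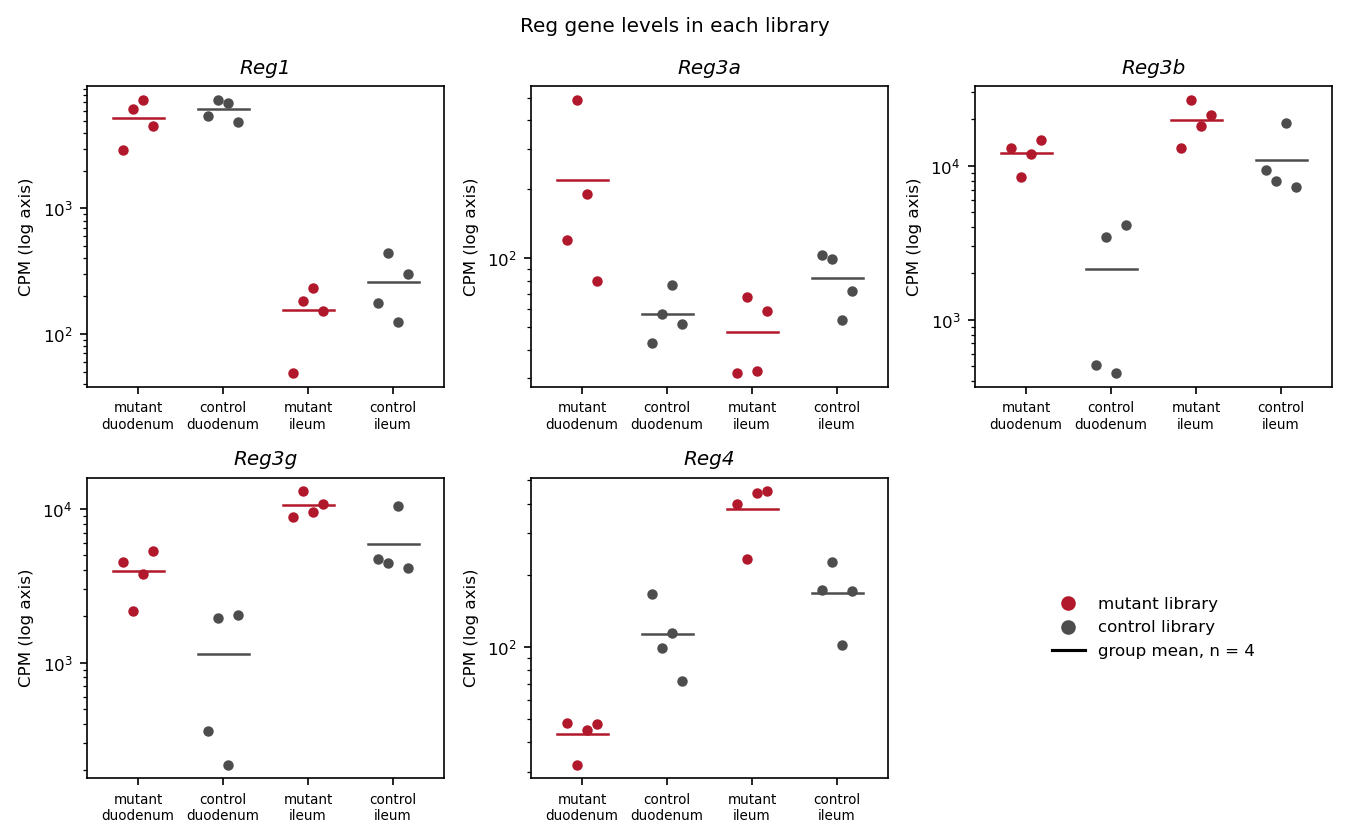
CPM of the 5 Reg genes in each library (log axis), with mutant libraries in red, control libraries in grey and bars at the mean of 4 libraries. Reg4 lay below controls in mutant duodenum (at most 48.1 against at least 72.0 CPM) and above them in mutant ileum (at least 234 against at most 227 CPM).

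Reg4 was the member whose response to genotype differed between the tissues by the edgeR test. DESeq2 called Reg3a as well as Reg4 in that test, with the Reg3a values given below. In the duodenum Reg4 had 45.1, 47.7, 48.1 and 32.2 CPM in mutants NFVCT27, NFVCT38, NFVCT153 and NFVCT190. Controls NF17, NF29, NF32 and NF152 had 99.1, 115, 72.0 and 167 CPM. In the ileum the same mutants had 442, 451, 397 and 234 CPM, against 227, 102, 171 and 174 CPM in the same controls. The groups did not overlap in either tissue, but in opposite order, and in the ileum the lowest mutant, NFVCT190, was only just above the highest control, NF17. The log2 fold change, mutant over control, was -1.39 in the duodenum (SE 0.24) and 1.16 in the ileum (SE 0.28). The difference of these effects, ileum minus duodenum, was 2.56 in log2 units, with an SE of 0.39 and a 95% interval of 1.79 to 3.33 (adjusted p = 0.0262, edgeR quasi-likelihood F test with Benjamini-Hochberg adjustment over 15882 genes). Reg4 ranked 6 by p among 7 genes called in that test, so that 1 of the 5 Reg genes was called where 0.0441% of all tested genes were. With the animal as a block the difference was 2.53 (adjusted p = 0.0116), and 16 genes were called in all. The call did not survive the removal of any one of 9 of the 16 libraries: the mutant ileal libraries of NFVCT27, NFVCT38 and NFVCT153, the control ileal ones of NF32 and NF152, the mutant duodenal ones of NFVCT27, NFVCT38 and NFVCT190, and the control duodenal one of NF29. Without them, one at a time, the difference was 2.42 to 2.62 and the adjusted p 0.0629 to 0.105; it was 0.0969 without a filter on low counts.

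Neither Reg4 effect passed the test within its own tissue. In the duodenum the adjusted p was 0.0508 (edgeR), with Reg4 ranked 59 by p where 58 genes were called. That value fell below the threshold with DESeq2 (adjusted p = 5.90e-06), with RLE scaling (0.0454), with acinar genes left out of the scaling (0.0447), with the acinar score as a covariate (log2 fold change -1.51, 0.0365), and without control NF32 (0.0113) or NF152 (0.0491). In the ileum the adjusted p was 0.0756 (edgeR), and it was 4.72e-05 with DESeq2, 0.0421 without a filter on low counts and 0.0116 without mutant NFVCT190. The smooth muscle score of the ileal libraries was also above controls in every mutant (8.46 ± 0.18 against 7.77 ± 0.22, mean log2(CPM + 1) of 10 genes), and with it as a covariate the ileal Reg4 log2 fold change was 0.43 (SE 0.58, adjusted p = 0.855); the part of muscle content in the ileal values was not tested further.

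**Figure D2:**
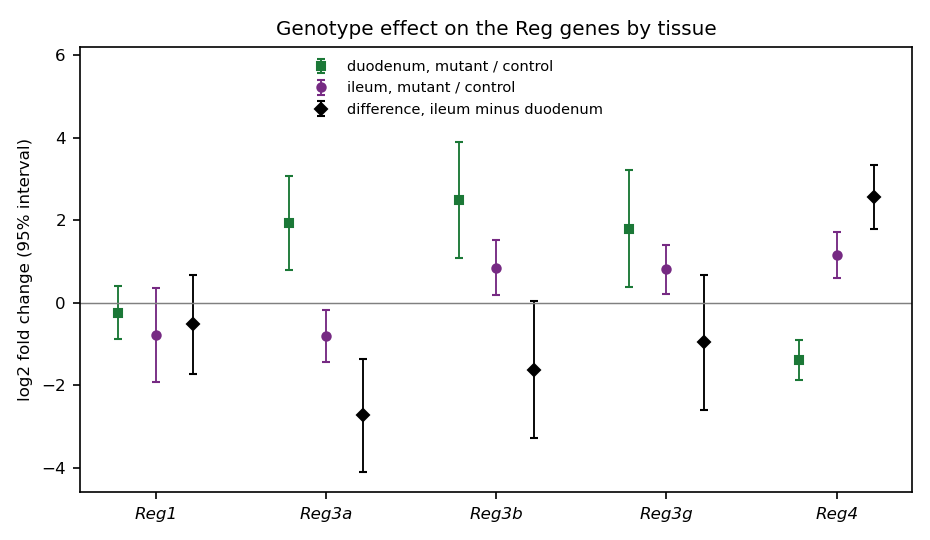
Log2 fold changes of the 5 Reg genes, mutant over control, in the duodenum (green squares) and the ileum (purple circles), and their difference, ileum minus duodenum (black diamonds), with 95% intervals. Reg4 lies at -1.39 in the duodenum and 1.16 in the ileum, and the interval of its difference, 1.79 to 3.33, lies apart from 0.

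Across the family, 0 of 5 genes were called in the duodenum by edgeR at an adjusted p under 0.05, where 0.394% of the 14703 genes tested were, and 0 of 5 in the ileum, where 3.28% of 14951 were. At an unadjusted p under 0.05 the counts were 4 of 5 in each tissue, against 8.71% of all genes in the duodenum and 15.8% in the ileum. DESeq2 called 3 in the duodenum (Reg3a, Reg3b and Reg4), where it called 2.11% of all genes, and 2 in the ileum (Reg3a and Reg4), where it called 5.85%. By limma-voom 0 of 5 were called in either tissue, against 0.367% of all genes in the duodenum and 3.19% in the ileum. The CPM of the groups did not overlap for 4 of 5 genes in the duodenum (all but Reg1), against 5.75% of all genes tested, and for 1 of 5 in the ileum (Reg4), against 10.1%. The median log2 fold change of the 5 was 1.79 in the duodenum and 0.81 in the ileum, beside -0.00015 and -0.0061 over all genes tested in those tissues.

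Among the antibacterial lectins, Reg3b was at high levels in every duodenal library of mutants, with 11895, 14785, 13030 and 8431 CPM in NFVCT27, NFVCT38, NFVCT153 and NFVCT190. Controls fell into a higher pair, NF17 with 3451 and NF32 with 4136 CPM, and a lower pair, NF29 with 449 and NF152 with 508 CPM. All 4 mutants thus lay above all 4 controls, and the spread among controls was wide. Its log2 fold change was 2.49 (SE 0.72, 95% interval 1.08 to 3.90), and the adjusted p was 0.244 (edgeR) and 0.0148 with DESeq2. Reg3g followed the same order, with 3788, 5338, 4535 and 2184 CPM in these mutants, against 1945, 216, 2040 and 357 CPM in NF17, NF29, NF32 and NF152. The lowest mutant was close to the highest control, and the log2 fold change was 1.79 (SE 0.72, interval 0.38 to 3.21, adjusted p = 0.512, edgeR). Among mutants, both genes ran in the reverse order of the acinar share: NFVCT38, NFVCT153, NFVCT27 and NFVCT190, with acinar shares of 2.01, 2.34, 13.2 and 20.8%, came in falling order of Reg3b and of Reg3g. Control duodena did not share this order. There NF17 and NF32, with acinar shares of 16.5 and 10.3%, had more of both genes than NF29 and NF152, with 8.71 and 7.36%. The part of acinar RNA in these values was not tested beyond the fits given here. Without NFVCT190 and NF17, which had the most acinar RNA of their genotypes, a comparison added after the data were seen, the log2 fold changes were 2.95 (SE 0.96) for Reg3b and 2.37 (SE 0.91) for Reg3g, neither called.

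In the ileum both antibacterial lectins were abundant in each genotype. Reg3b had 18156, 21440, 13114 and 26864 CPM in mutants NFVCT27, NFVCT38, NFVCT153 and NFVCT190, against 7997, 18878, 7320 and 9335 CPM in controls NF17, NF29, NF32 and NF152. Reg3g had 9569, 10834, 8839 and 13124 CPM in the mutants, against 4442, 10483, 4110 and 4741 CPM in the controls. A single control, NF29, reached the mutant range for both genes, and the other 3 controls lay below every mutant. The log2 fold changes were 0.85 for Reg3b (SE 0.34, adjusted p = 0.268) and 0.81 for Reg3g (SE 0.31, adjusted p = 0.232, both edgeR). Without NF29 they were 1.26 (SE 0.21, adjusted p = 0.00607) and 1.24 (SE 0.16, adjusted p = 0.000644), both past the threshold. With the smooth muscle score as a covariate they were 2.02 for Reg3b (SE 0.68, adjusted p = 0.503) and 1.60 for Reg3g (SE 0.73, adjusted p = 0.609), neither called (edgeR). That score was at least 8.29 in mutant ileum and at most 8.03 in control ileum. Because it separates the genotypes, this fit cannot tell muscle content and genotype apart. NF29 stood at the other end in the duodenum, where it had the lowest Reg3b and Reg3g of the 4 controls. The genotype effects in the 2 tissues did not differ by the test for Reg3b (-1.62, interval -3.29 to 0.04, adjusted p = 0.999988) or Reg3g (-0.96, interval -2.60 to 0.67, adjusted p = 0.999988, both edgeR), though these intervals are wide enough to hold sizeable differences.

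Reg3b and Reg3g moved together. After subtraction of each group's mean, their log2(CPM + 1) values correlated with r = 0.978 over the 16 libraries, 0.982 over the duodenal and 0.959 over the ileal ones, and each was the gene most like the other among all 12878 genes compared. The ratio of Reg3b to Reg3g CPM was nonetheless higher in mutant duodenum, with 3.14, 2.77, 2.87 and 3.86 in NFVCT27, NFVCT38, NFVCT153 and NFVCT190, against 1.77, 2.08, 2.03 and 1.42 in NF17, NF29, NF32 and NF152. In the ileum the ratio was 1.90, 1.98, 1.48 and 2.05 in the same mutants and 1.80, 1.80, 1.78 and 1.97 in the same controls. The ratio was chosen after its values were seen, so it is described and not tested: the groups stood apart in the duodenum and overlapped in the ileum, and mutant duodenum was the group that stood above the other 3.

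**Figure D3:**
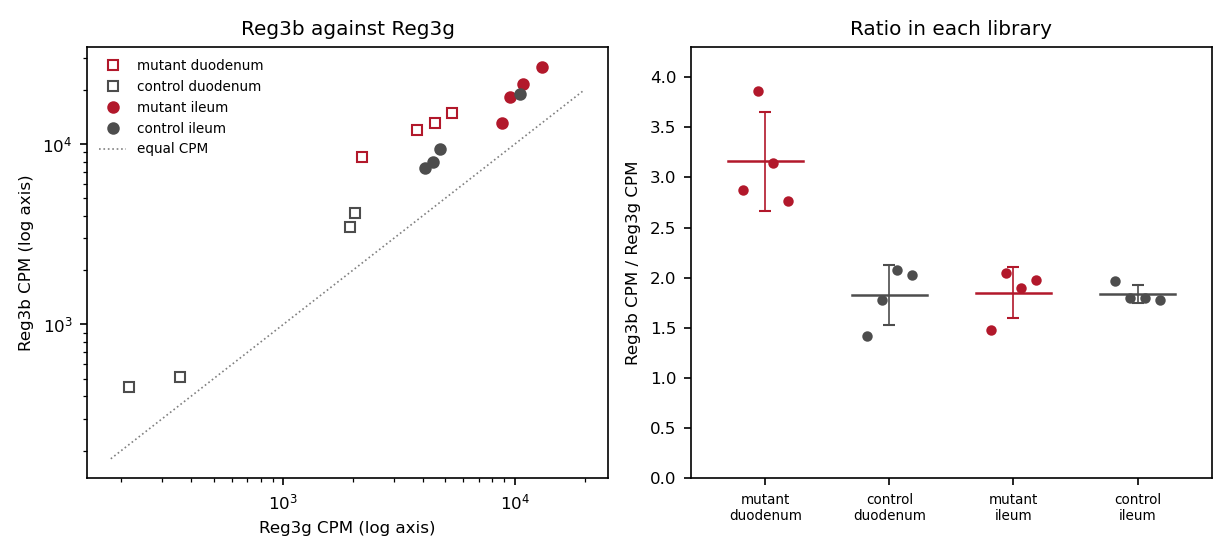
Left, Reg3b against Reg3g CPM in 16 libraries (log axes; open squares duodenum, filled circles ileum, red mutant, grey control; dotted line, equal CPM). Right, the ratio of Reg3b to Reg3g in each library, with the mean and SD of 4; it was 3.16 ± 0.49 in mutant duodenum, against 1.83 ± 0.30 in control duodenum, and 1.85 ± 0.25 in mutant ileum, against 1.84 ± 0.09 in control ileum.

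Reg3a, the least abundant member per kilobase in 3 of the 4 groups, had values on opposite sides of control in the 2 tissues. In the duodenum it had 190, 79.9, 120 and 493 CPM in NFVCT27, NFVCT38, NFVCT153 and NFVCT190, against 57.1, 76.2, 52.0 and 42.7 CPM in NF17, NF29, NF32 and NF152. The lowest mutant was just above the highest control, while the highest, NFVCT190, was also the duodenal library richest in acinar RNA. The duodenal log2 fold change was 1.94 (SE 0.58, adjusted p = 0.333, edgeR). With the acinar score as a covariate it was 2.06 (SE 0.28, adjusted p = 0.0250), and with DESeq2 it was also called (adjusted p = 0.0452), but without NFVCT190 and NF17 it was 1.18 (SE 0.36, adjusted p = 0.354). In the ileum Reg3a had 32.3, 58.9, 31.6 and 68.0 CPM in the mutants, against 99.9, 54.0, 72.2 and 104 CPM in the controls. The groups overlapped through NF29, and the log2 fold change was -0.80 (SE 0.32, adjusted p = 0.284, edgeR; 0.0288 with DESeq2). The difference of the effects, ileum minus duodenum, was -2.73 (SE 0.70, interval -4.12 to -1.35), with an adjusted p of 0.449 by edgeR and 0.0278 by DESeq2. Relative to Reg3b, Reg3a CPM stood at 0.178 to 0.275% in mutant ileum, against 0.286 to 1.25% in control ileum.

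Reg1, the member most strongly tied to the duodenum, showed no genotype difference beyond the spread of the libraries. It had 7310, 4498, 2924 and 6168 CPM in duodenum of NFVCT27, NFVCT38, NFVCT153 and NFVCT190, against 7351, 6896, 4881 and 5472 CPM in that of NF17, NF29, NF32 and NF152. The groups overlapped, with the mutants reaching lower, and the log2 fold change was -0.24 (SE 0.33, interval -0.88 to 0.40, adjusted p = 0.930, edgeR). The mutant libraries with less Reg1 were those with less pancreatic RNA, NFVCT38 and NFVCT153. Against the summed CPM of the 19 acinar genes, Reg1 was 22.5 and 12.3% in these libraries and 4.46 and 2.66% in NFVCT27 and NFVCT190. In control duodenum it was 3.81 to 7.60%. With the acinar score as a covariate the duodenal log2 fold change of Reg1 was -0.10 (SE 0.26, adjusted p = 0.987, edgeR). In the ileum Reg1 had 233, 153.2, 48.7 and 182 CPM in the mutants, against 440, 124, 301 and 177 CPM in the controls. Its ileal log2 fold change was -0.78 (SE 0.58, interval -1.92 to 0.36, adjusted p = 0.616, edgeR). With the acinar score as a covariate it was -0.38 (SE 0.35, adjusted p = 0.710, edgeR). The part of pancreatic RNA in the Reg1 values was not tested beyond these fits.

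**Figure D4:**
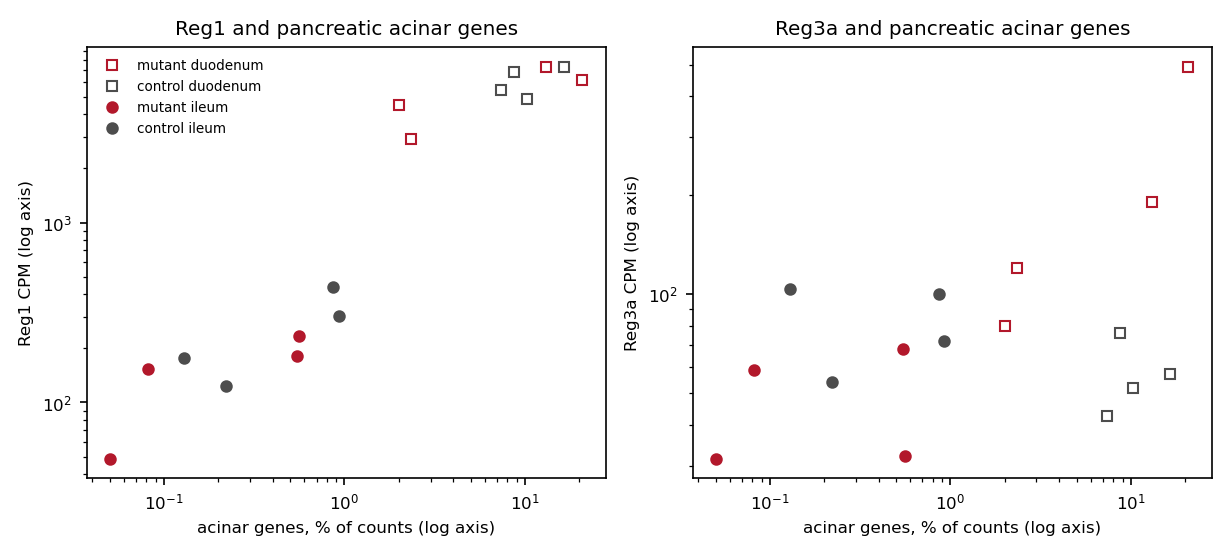
Reg1 (left) and Reg3a (right) CPM against the percentage of counts in 19 pancreatic acinar genes, for 16 libraries (log axes; open squares duodenum, filled circles ileum, red mutant, grey control). Reg1 in the 2 duodenal libraries of mutants with acinar shares of 2.01 and 2.34% was 4498 and 2924 CPM, above every ileal library. These acinar shares also lay above every ileal one (at most 0.927%). Reg3a reached 493 CPM at an acinar share of 20.8%.

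Along the gut, Reg1 was the gene of the duodenum in either genotype. Its log2 fold change, ileum over duodenum, was -5.11 in mutants (SE 0.52, adjusted p = 8.77e-05) and -4.56 in controls (SE 0.40, adjusted p = 1.12e-05, both edgeR). The acinar share was also far lower in the ileum. Acinar genes that were tested had a median log2 fold change, ileum over duodenum, of -5.27 in mutants and -4.59 in controls. The part of acinar RNA in the Reg1 difference was not tested. In mutants 4 of the 5 genes passed the test between tissues, where 32.3% of the 14950 genes tested did. Reg4 was higher in mutant ileum than in mutant duodenum by 3.11 log2 units (SE 0.22, adjusted p = 4.02e-06) and Reg3g by 1.40 (SE 0.28, adjusted p = 0.00293), whereas Reg3a was lower (-2.23, SE 0.65, adjusted p = 0.0381, edgeR). Reg3b did not pass in mutants (0.70, SE 0.28, adjusted p = 0.0712). In controls Reg1 alone passed, 1 of 5 genes where 35.9% of 14976 did; Reg3b stood at 2.35 (SE 0.86, adjusted p = 0.0747), Reg3g at 2.39 (SE 0.84, adjusted p = 0.0679), Reg4 at 0.58 (SE 0.31, adjusted p = 0.186) and Reg3a at 0.54 (SE 0.23, adjusted p = 0.101). DESeq2 called all 5 genes between tissues in mutants and all but Reg4 in controls, so the control result depends on the tool. Limma-voom called 4 in mutants and 1 in controls. The shares of all genes called by these tools between tissues are not given here. Passing in mutants and not in controls is no test of a difference between genotypes. That test is the one given above, which Reg4 passed by edgeR. The mutant Reg3a call was lost without the ileal library of NFVCT27, NFVCT38, NFVCT153 or NFVCT190, without the duodenal one of NFVCT27, or without a filter on low counts (adjusted p 0.0609 to 0.0882). Reg3a in controls passed without the ileal (0.0174) or the duodenal (0.0382) library of NF29.

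Signalling genes linked to Reg proteins gave 0 calls in the duodenum and 1 in each direction in the ileum. The list of 21 held IL-22, IL-6, IL-23 and IL-17 components, microbial sensors and the proposed Reg receptor Extl3. In the duodenum 16 were tested and 0 were called by edgeR, DESeq2 or limma-voom, with 1 at an unadjusted p under 0.05. Of all genes tested there, edgeR called 0.394%, DESeq2 2.11% and limma-voom 0.367%, and 8.71% had an unadjusted p under 0.05. At such shares, 0 calls among 16 genes says little. In the ileum 1 of 17 rose and 1 fell, against 1.77% of all genes higher and 1.51% lower. There 4 of 17 had an unadjusted p under 0.05, beside 15.8% of all genes. DESeq2 called 2 of the 17, beside 5.85% of all genes, and limma-voom 1, beside 3.19%. The ileal gene that fell was Il22ra2, the soluble receptor that binds and blocks IL-22: it averaged 3.20 ± 1.21 CPM in mutants and 9.75 ± 4.03 CPM in controls (log2 fold change -1.61, SE 0.34, adjusted p = 0.0329, edgeR). Tlr4, the sensor of bacterial lipopolysaccharide, averaged 29.5 ± 2.90 CPM in mutant ileum and 20.4 ± 1.56 CPM in control ileum (0.51, SE 0.12, adjusted p = 0.0307). Il22 itself did not pass the filter in either tissue, and the IL-22 receptor subunit Il22ra1 stood at -0.09 (SE 0.19) in the duodenum and 0.27 (SE 0.12) in the ileum, Stat3 at 0.04 (SE 0.16) and 0.10 (SE 0.12), and Extl3 at -0.01 (SE 0.18) and 0.02 (SE 0.10), none called. Among 14 other genes known to respond to IL-22, 0 of 8 tested were called in the duodenum by any of the 3 tools, with 0 at an unadjusted p under 0.05. The duodenal shares of all genes given above make this count as little telling. In the ileum 1 of 10 was called, Il18, an epithelial cytokine (1.09, SE 0.19, adjusted p = 0.0122, edgeR). It had 85.6 ± 28.0 CPM in mutants and 39.6 ± 5.35 CPM in controls. Of those 10 genes, 8 lay above 0 and 2 below, with a median log2 fold change of 1.05, beside -0.0061 over all genes. DESeq2 called 2 of them, beside 5.85% of all genes, and limma-voom 1, beside 3.19%. At an unadjusted p under 0.05 there were 2, beside 15.8%. The list's score was 4.27 ± 0.13 in mutants and 3.75 ± 0.47 in controls (exact permutation p = 0.143). Control NF29 was at 4.46, mutants at 4.14 to 4.40, and NF17, NF32 and NF152 at 3.49, 3.56 and 3.50.

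Several genes of the secretory cells that can make Reg proteins rose in mutant ileum, where 1.77% of all genes tested rose and 1.51% fell. Goblet cell genes rose for 5 of 10 tested, among them Retnlb, an antibacterial resistin-like protein (74.8 ± 34.0 CPM in mutant ileum and 2.72 ± 1.14 CPM in control ileum; 4.75, SE 0.54, adjusted p = 0.00763), Spink4 (0.74, SE 0.12) and Clca1 (0.92, SE 0.16). Paneth cell genes rose for 4 of 13, among them Ang4, a microbicidal ribonuclease (1751 ± 435 CPM in mutant ileum and 625 ± 74.9 CPM in control ileum; 1.47, SE 0.17, adjusted p = 0.000321), and Mptx2 (0.90, SE 0.15, adjusted p = 0.00573, edgeR); the 2 others, Defa26 and Defa30, belong to a family of near-identical genes whose reads may be split. In the duodenum 0 of 10 goblet and 0 of 12 Paneth genes were called by edgeR, beside 0.394% of all genes. At an unadjusted p under 0.05 there were 5 goblet and 8 Paneth genes, beside 8.71% of all genes, and all genes of both lists that were tested lay above 0. DESeq2 called 4 goblet genes and 1 Paneth gene, beside 2.11% of all genes, and limma-voom 0 of either. Of 16 other lectins and antimicrobial genes, 0 of 14 tested were called in the duodenum by edgeR (3 at an unadjusted p under 0.05, 1 by DESeq2), and in the ileum 1 of 15 rose, the phospholipase Pla2g2a (0.63, SE 0.16, adjusted p = 0.0416, edgeR). All 12 enteroendocrine genes fell in the ileum and 9 of 12 in the duodenum.

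Scores of these lists showed the same order in each library. The goblet score was 8.32 ± 0.26 in mutant duodenum and 7.78 ± 0.11 in control duodenum. It was 9.39 ± 0.19 in mutant ileum and 8.53 ± 0.12 in control ileum. The ileal goblet scores include the large rise of Retnlb (74.8 CPM in mutants and 2.72 CPM in controls). The median ileal log2 fold change of the 10 goblet genes was 0.47. The Paneth score was 6.57 ± 0.08 in mutant duodenum and 5.91 ± 0.41 in control duodenum, and 8.49 ± 0.15 in mutant ileum and 8.08 ± 0.11 in control ileum. Mutants lay above controls without overlap in each of these 4 comparisons (two-sided exact permutation test, p = 0.0286, the lowest that 4 against 4 libraries can give; adjusted p = 0.0629 over 22 list scores), so none passed after adjustment. The ileal smooth muscle score gave the same p-values. So did the immune score, which lay below controls in mutants without overlap (2.85 ± 0.09 in mutant duodenum and 3.38 ± 0.12 in control duodenum; 2.88 ± 0.06 in mutant ileum and 3.51 ± 0.30 in control ileum), and the score of distal gut genes in the ileum (8.37 ± 0.09 in mutant ileum and 8.90 ± 0.16 in control ileum), while the epithelial score differed less than its spread allowed to call (9.51 ± 0.10 in mutant ileum and 9.37 ± 0.14 in control ileum; exact p = 0.2). The Reg values stand beside these makeup scores, and the part of cell makeup in them was not tested.

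**Figure D5:**
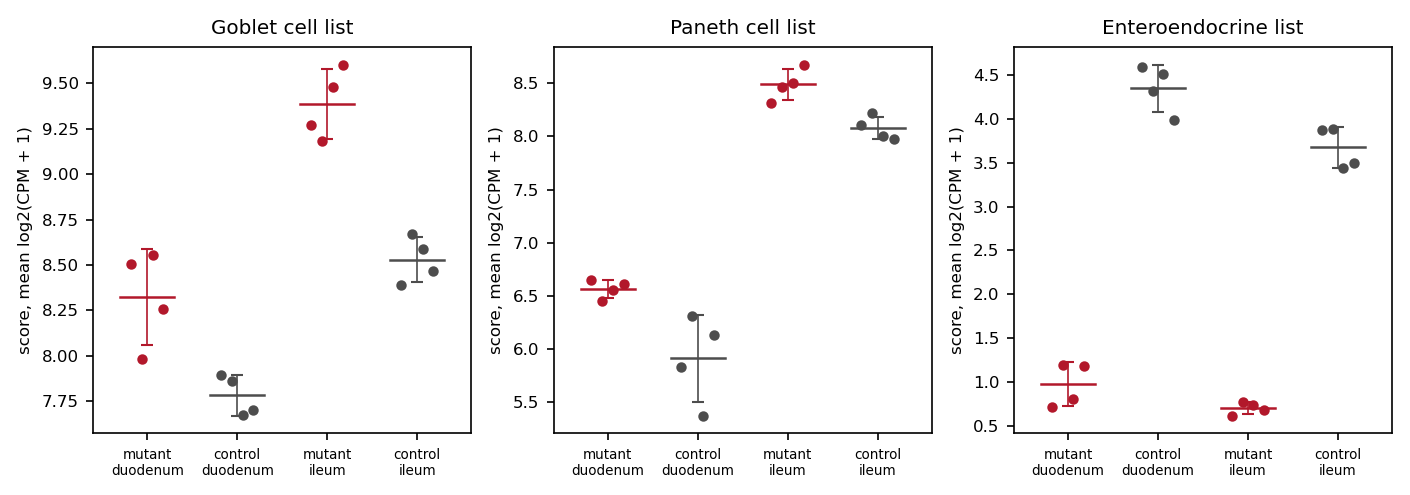
Scores of 3 cell type lists in each library, as the mean of log2(CPM + 1) over the list's genes, with mean and SD of 4 libraries (red mutant, grey control). Goblet and Paneth scores of mutants lie above those of controls in both tissues, and enteroendocrine scores of mutants lie below (0.98 ± 0.25 in mutant duodenum, 4.35 ± 0.27 in control duodenum; 0.70 ± 0.07 in mutant ileum, 3.67 ± 0.23 in control ileum).

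The genes whose levels were most like those of each member are given as a description, from Pearson correlations of log2(CPM + 1) over the 16 libraries, which share tissue, animal and scaling. Over all libraries, Reg1 was most like Otop3 (r = 0.987), Pdx1, a transcription factor of duodenum and pancreas (0.984), and Sult6b2 (0.981). Beside each other, Reg3b and Reg3g were most like Mptx2, a Paneth cell pentraxin (0.909 and 0.936), followed by Pkp2 for Reg3b (0.878) and Prss32 for Reg3g (0.920). Reg4 was most like F2r, a thrombin receptor (0.948), Klhl32 (0.910) and Rnf11 (0.902), and Reg3a had the weakest partners, Cyp4f17 (0.859), Acadsb (0.814) and Trappc10 (0.756). Within groups, after subtraction of group means, the Paneth cell defensins Defa21 (0.853 with Reg3b) and Defa29 (0.906 with Reg3g) came up next to Zcchc8 (0.898 and 0.870). By the same measure Reg1 was most like Foxq1 (0.887), Ngef (0.868) and Syngr3 (0.864), Reg3a like Mkx (0.975), Nr6a1 (0.936) and Klb (0.899), and Reg4 like Glb1l (0.898), Porcn (0.881) and Zfp623 (0.870). Reg4 ran against Reg3b and Reg3g within groups (r = -0.604 and -0.505), and Reg1 varied on its own with respect to Reg3b (-0.10) and Reg3g (-0.19).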

How the data were processed

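Total RNA depleted of ribosomal RNA was sequenced from 16 tissue pieces with a stranded kit and PCR amplification, per the labels' protocols. Per the submitters' processing notes, STAR 2.5.3a, HTSeq 0.6.1p1, Bowtie2 2.2.8, cutadapt 1.10 and bcl2fastq 2.20.0.422 were used with the build mm39; no source used here gives the strand setting of the counting or the gene annotation. The deposited table holds raw counts per Ensembl gene, per the file headers and its whole-number values. Symbols were matched by identifier (52083 of 55359; 98.3% of counts). Within a group each library comes from its own animal; the 16 libraries come from 8 animals.

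From the counts, edgeR 4.0.16 in R 4.3.3 was run with TMM scaling, filterByExpr and the robust quasi-likelihood F test; Benjamini-Hochberg adjustment ran over all genes tested, and genes were called under 0.05. The SE is the log2 fold change divided by the root of F, and intervals are 1.96 SE either way. Genotype was tested within each tissue, tissue within each genotype (8 libraries each), and the difference of genotype effects over 16 libraries. Lengths for CPM per kb came from GENCODE M21. List scores used a pseudocount of 1 and exact permutation tests. DESeq2 1.42.0, limma-voom (limma 3.58.1), other scalings, filters, covariates and left-out libraries were alternatives. The edgeR fits of genotype within each tissue, and of tissue in controls, were checked on simulated counts with the same spread setting for every gene. The fit of tissue in mutants and that of the difference between tissues were not.

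The labels give each animal's name for both tissues. Deviations from group means of an animal's 2 libraries correlated at 0.117 to 0.378 in all 8 animals, although for NF29 and NF32 another animal's library reached 0.120 and 0.253, so in tests that span tissues the animal was also fitted as a block, as an alternative; values given come from fits without the block unless it is named.

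The 5 genes, the lists and the tests were chosen with earlier results of these data known. Named genes are the members, up to 4 genes of smallest p of each list, and 3 genes most like each member by either measure, among protein-coding genes of mean CPM at least 1. Some genes, such as Il22, Stat3 and Extl3, were named outside this rule. Promoter windows were read from RefSeq tables (GRCm38.p6), a build other than that of the counts, and aligned with Biopython; no protein sequences were used here.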

Additional observations from a re-analysis of the deposited data

Results flagged for a closer look

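Reg3g had 10483 CPM in the control ileum of NF29, against 4110 to 4741 CPM in the other 3 control ileal libraries. The gap to the nearest of them was 0.901 of the group's whole range, above the 95% critical value of Dixon's test for 4 samples. Of the 20 groups examined (5 genes in 4 groups) this was the one that stood out so far, and chance gives about 1 in 20. Reg3b of the same library was 18878 CPM, against 7320 to 9335 CPM in the other 3, a gap just under that limit. The acinar share of the library was 0.220%, within the 0.130 to 0.927% of control ileum.

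The genotype effect on Reg4 differed between tissues by 2.56 in log2 units, ileum minus duodenum (adjusted p = 0.0262, edgeR), with mutants above controls in the ileum and below them in the duodenum in every library. Enteroendocrine genes, which share that cell type with Reg4, fell in both tissues, and goblet scores were above controls in both; their part in the Reg4 values was not tested.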

How the results depend on the processing

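No result changed direction under any alternative run. In the duodenum, where 58 genes and 0 Reg genes were called, DESeq2 called 310 genes and 3 Reg genes, no filter gave 169 genes, RLE scaling 1 Reg gene, acinar genes left out of the scaling 1, the acinar covariate 2, and leaving out NFVCT190 and NF17, richest in acinar RNA (chosen after seeing the data), 31 genes. Leaving out 1 library gave 27 to 61 genes and 0 to 1 Reg genes. In the ileum, with 490 genes and 0 Reg genes, DESeq2 gave 875 and 2, no filter 1096 and 1, and the smooth muscle covariate 16 genes; leaving out 1 library gave 272 to 472 genes and 0 to 2 Reg genes. For the difference between tissues, with 7 genes and 1 Reg gene, DESeq2 gave 38 and 2, no filter 15 and 0, the replicate block 16 genes, 6 of them among the 7, and leaving out 1 library 3 to 13 genes and 0 to 1 Reg genes. In control ileum against control duodenum, with 1 Reg gene, DESeq2 called 4, no filter 2, and leaving out 1 library 1 to 2. In mutant ileum against mutant duodenum, with 4 Reg genes, DESeq2 called 5, and leaving out 1 library 3 to 4. The block changed no other call of a Reg gene. The cause of these moves was not tested, except that fewer samples or another set of genes tested is part of several alternatives.

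Limits are the 4 libraries per group, the wide spread of Reg3b and Reg3g among control duodena, unequal pancreatic RNA in the duodenum, and more smooth muscle RNA in mutant ileum, a score that separates the ileal genotypes. PCR copies were not marked by molecular identifiers.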

Other observations

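Reg2, a Reg gene of the mouse pancreas that is not among the 5 genes above, was high in duodenum of every mutant, with 3019, 524, 449 and 5000 CPM in NFVCT27, NFVCT38, NFVCT153 and NFVCT190, against 192, 18.4, 282 and 2.21 CPM in NF17, NF29, NF32 and NF152. In the ileum it had 95.8, 19.6, 7.08 and 128 CPM in the mutants, against 8.82, 0.0893, 21.2 and 0 CPM in the controls. The log2 fold changes were 4.18 (SE 1.62, adjusted p = 0.522) in the duodenum and 3.08 (SE 1.55, adjusted p = 0.420) in the ileum, neither called (edgeR), and 4.34% of the 50-base stretches of its transcript also occur in other genes.

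Set against the summed counts of the 19 acinar genes of its library, with 0.5 added to Reg2, the level was close in both tissues of each mutant and of NF17 and NF32; NF29 and NF152 had lower values in the ileum, where they rest on 1 and 0 Reg2 counts. It was 1.84, 2.62, 1.89 and 2.16% in the duodenum of NFVCT27, NFVCT38, NFVCT153 and NFVCT190, against 0.0993, 0.0185, 0.260 and 0.00311% in that of NF17, NF29, NF32 and NF152. In the ileum it was 1.78, 2.41, 1.53 and 2.41% in these mutants, against 0.111, 0.00684, 0.265 and 0.00190% in these controls. All 8 mutant libraries thus lay within 1.53 to 2.62%, and the 8 control libraries at 0.265% or less, with NF17 and NF32 above NF29 and NF152 in each tissue, the order in which Reg3b stood in control duodenum. This ratio was chosen after its values were seen and is given with no test. Villin-CreERT2 is directed at the gut epithelium, and neither recombination in the pancreas nor pancreatic tissue was measured here.

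Reg3d, another family member, had 178, 28.0, 29.8 and 332 CPM in mutant duodenum (same order of animals), against 56.0, 31.9, 41.3 and 15.0 CPM in control duodenum, and at most 7.66 CPM in mutant ileum and 3.36 CPM in control ileum; its duodenal values were highest in the mutants of highest acinar share, NFVCT190 and NFVCT27.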
